A study of Mus musculus with 282 samples.

Results

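The genes described here are 10 members of the interleukin 1 (IL-1) system, taken by symbol from the 48440 gene rows of both count tables. They are the ligand genes Il1a, Il1b, Il33 and Il18, the receptor genes Il1r1, Il1rap, Il1rl1 and Il1r2, and the kinase genes Irak2 and Irak3. All 10 had a row in both tables. They were compared between inflamed and naive cells within each processing batch, and reads of pairs of them were counted cell by cell.

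IL-1α and IL-1β bind the receptor IL1R1, which then recruits the accessory protein IL1RAP. The receptor pair signals through MYD88 and the IRAK kinases to NF-κB and MAP kinases. IL1R2 is a decoy that binds IL-1 without signalling, and the antagonist encoded by Il1rn blocks IL1R1. IL-33 signals through the receptor encoded by Il1rl1 together with IL1RAP, and IL-18 through its own receptor pair. Barrier epithelia store IL-1α and IL-33 and release them on damage.

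Both groups came from prostates of male POET3 mice, a transgenic line in which a probasin promoter drives ovalbumin in the prostate. The inflamed cells came from inflamed prostates and the naive cells from naive ones. The sources used here do not say how the inflammation was brought about, nor the age or number of the mice. All cells were sorted as basal prostate stem cells after staining with a dye for dead cells and antibodies to CD45 (leukocytes), CD31 (endothelium), CD49f and Sca-1, and were captured and amplified 1 by 1 with polyA-primed chemistry, with no molecular identifiers. After leaving out 14 of 282 cells with few genes or counts, 80 inflamed cells of batch 2, 76 inflamed cells of batch 3, 53 naive cells of batch 2 and 59 naive cells of batch 3 remained. Their median totals lay between 840863 and 1001872 counts. Counts were summed over the cells of each condition and batch, which gave 4 sums of 50105953 to 79225330 counts, and levels are given as CPM (counts scaled to 1e6) of these sums. With 2 sums per condition and no mouse named in the labels, p-values measure only the spread between these sums, which may be technical, and counting intervals cover counting error only.

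The cells carried basal markers and luminal ones as well, and the gene of Sca-1 was not among the markers looked at. All 10 basal epithelial markers were detected, with a summed level of 13900 and 13940 CPM in the inflamed sums, against 8277 and 10110 CPM in the naive sums. Krt17 supplied most of that difference (6864 and 5813 CPM, against 1668 and 3704 CPM), while Krt5 and Trp63 were lower in the inflamed cells of both batches. All 14 luminal markers were detected too, and summed to 2716 and 2366 CPM in inflamed cells, against 1937 and 2413 CPM in naive cells. Of them, 3 were higher and 7 lower in both batches, against 30.9% and 27.6% of all genes tested. Krt19 was 19.3-fold and 6.14-fold higher, at an unadjusted p of 0.00545 by edgeR. Hoxb13 and Defb50 were lower, at an unadjusted p of 0.0168 and 0.00859 by edgeR. The part of these marker differences in the results was not tested. Of 16 leukocyte markers, 12 were at 0 in every sum, Ptprc (CD45) among them. The summed leukocyte level was 20.3 and 28.3 CPM in inflamed cells, against 20.4 and 11.5 CPM in naive cells, and Cd68 supplied nearly all of it. Endothelial markers summed to 1.31 and 2.24 CPM in inflamed cells, against 0.709 and 0.864 CPM in naive cells. Smooth muscle markers summed to 40.7 and 119.8 CPM in inflamed cells, against 70.2 and 142.2 CPM in naive cells. Fibroblast markers other than Dcn summed to 0.165 and 1.35 CPM in inflamed cells, against 39.6 and 0.168 CPM in naive cells, and Dcn itself stood at 3377 and 4397 CPM, against 3933 and 4369 CPM. The median mitochondrial share of counts was 3.73% and 2.82% in inflamed cells, against 2.67% and 2.26% in naive cells, and its part in the results was not tested.

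The start regions of 4 members are shown. Il1a and Il1b are neighbouring genes that differed in these cells, and Il1r1 and Il1r2 are neighbouring receptor genes. Whether the start regions bear on the levels was not tested. Each run is the 250 bases before the RefSeq transcription start (GRCm38.p6), 5′ to 3′ on the gene's strand. Motifs were searched on both strands. The letters were GGGNNNNNCC for NF-κB and TTCNNNGAA for a GAS element, which STAT factors bind. For a TATA box the letters were TATAAA. For AP-1 they were TGA and TCA with any 1 base between. Capitals mark the matches, and no match overlapped another in the 4 runs. Among all 32851 promoters of this length, 6.75% held the AP-1 letters, 45.8% the NF-κB letters, 7.02% the GAS letters and 12.4% the TATA letters.
Il1a, chr2:129309973-129310222, minus strand: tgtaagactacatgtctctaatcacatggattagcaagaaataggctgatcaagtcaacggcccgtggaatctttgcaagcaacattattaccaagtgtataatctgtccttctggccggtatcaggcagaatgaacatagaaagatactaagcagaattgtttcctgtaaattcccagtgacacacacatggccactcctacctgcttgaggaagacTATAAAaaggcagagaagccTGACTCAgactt
Il1b, chr2:129371140-129371389, minus strand: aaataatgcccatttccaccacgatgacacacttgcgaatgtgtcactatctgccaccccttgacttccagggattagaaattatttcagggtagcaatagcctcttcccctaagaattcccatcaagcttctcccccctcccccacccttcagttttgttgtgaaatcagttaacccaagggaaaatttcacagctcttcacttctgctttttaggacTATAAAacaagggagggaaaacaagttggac
Il1r1, second start site, chr1:40266336-40266585, plus strand: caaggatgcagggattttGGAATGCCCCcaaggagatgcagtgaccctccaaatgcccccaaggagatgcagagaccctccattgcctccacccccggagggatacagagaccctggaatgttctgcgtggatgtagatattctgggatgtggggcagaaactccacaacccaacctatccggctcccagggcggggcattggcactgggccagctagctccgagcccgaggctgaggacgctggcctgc
Il1r2, chr1:40085843-40086092, plus strand: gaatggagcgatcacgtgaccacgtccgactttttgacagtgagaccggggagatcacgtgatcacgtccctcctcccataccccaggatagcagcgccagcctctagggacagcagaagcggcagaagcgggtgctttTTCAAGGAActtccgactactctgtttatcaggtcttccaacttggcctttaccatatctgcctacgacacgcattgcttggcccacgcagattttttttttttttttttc
The Il1a run held a TATA match that begins 32 bases before the start and an AP-1 match that begins 12 bases before it. The Il1b run held a TATA match 31 bases before the start and none of the other letters. The second of the 2 start sites of Il1r1 had an NF-κB match at 232 bases, and the first had no match of the 4. Of the members not shown, Il1rap had 6 NF-κB matches, some overlapping, and Irak3 had 2 at the first of its 2 start sites. Il33, Il18, Il1rl1 and Irak2 had none. The Il1r2 run had a GAS match, and its RefSeq start lies inside the longer GENCODE gene model. A match is a description of the letters and not a measured binding site.

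Of the ligands, Il1a was read almost only in the inflamed sums. Il1a (chromosome 2, 129299610-129309972, minus strand) encodes IL-1α, which is active as a precursor and acts as an alarm signal when cells are damaged. It stood at 147.5 and 78.4 CPM in inflamed cells, against 0 and 0.0843 CPM in naive cells. Both inflamed sums thus lay far above both naive sums. In batch 2 the inflamed level was at least 2775-fold higher, with the naive level set at a floor of 3 counts in the sum. In batch 3 it was 931-fold higher (95% counting interval 363 to 3416), against 4 naive reads, 1 in each of 4 cells. The fitted log2 fold change was 11.53 ± 1.87 (SE), with p = 0.00469 unadjusted and an adjusted p of 0.568 by edgeR's quasi-likelihood test, and the fitted size depends on the prior count because a naive sum is at 0. By DESeq2 the adjusted p was 3.22e-21. An overlapping gene, Gm14023, covers 11.2% of the exon bases of Il1a, and reads in that stretch could belong to either gene. Such overlaps cover 4.86% of the exon bases of Il1rap, 4.44% of Irak2 and 5.99% of Irak3.

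Il1b, the gene of IL-1β, the form made mainly by myeloid cells, had 0 reads in every sum. It was at 0 in 80 and 76 inflamed cells, which allows a share of cells with reads of up to 3.75% and 3.95% when 3 cells are taken as the limit, and of 4.51% and 4.74% by the exact 95% interval. It was also at 0 in 53 and 59 naive cells, which allows up to 5.66% and 5.08% by 3 cells, and 6.72% and 6.06% by the exact interval. Il1b therefore entered no test. The naive level of its neighbour Il1a was close to it, and the inflamed level was not.

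Il33 (chromosome 19, 29925114-29960718, plus strand) encodes IL-33, a nuclear alarm cytokine of epithelial cells. It had the highest level of the members in every sum: 702 and 1688 CPM in inflamed cells, against 534 and 219 CPM in naive cells. The groups did not overlap, but the naive sum of batch 2 came close to the inflamed sum of the same batch. The inflamed level was 1.32-fold higher in batch 2 and 7.70-fold higher in batch 3. The log2 fold change was 1.67 ± 0.79 (SE), with an adjusted p of 0.642 by edgeR and 0.0524 by DESeq2, so Il33 passed neither threshold.

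Il18 encodes IL-18, which needs caspase-1 cleavage and drives interferon-γ production in lymphocytes. It stood at 1.22 and 6.18 CPM in inflamed cells, against 6.17 and 5.79 CPM in naive cells, and the groups overlapped. Reads came from 2 and 2 inflamed cells and from 5 and 1 naive cells, and a single cell held 68.7% to 100% of the reads of each sum. The log2 fold change was -1.12 ± 1.87 (SE; adjusted p of 0.954 by edgeR).

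**Figure D1:**
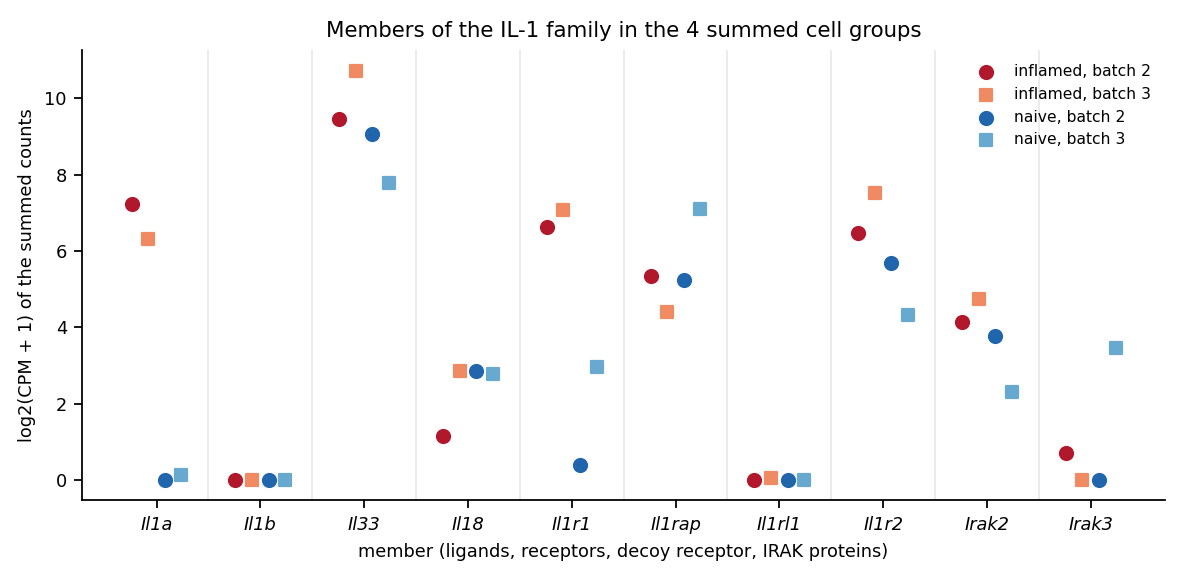
Level of the 10 members as log2(CPM + 1) of the summed counts (y axis), 1 point per condition and batch, inflamed left of naive. Il1a and Il1r1 stand apart most, with 147.5 and 78.4 CPM of Il1a in the inflamed sums against 0 and 0.0843 CPM in the naive sums, while the points of Il18 and Il1rap overlap.

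Among the receptors, the signalling receptor and the decoy were higher in the inflamed sums and the accessory chain was not. Il1r1 (chromosome 1, 40225080-40317257, plus strand), the signalling receptor of IL-1, stood at 97.2 and 132.7 CPM in inflamed cells, against 0.301 and 6.83 CPM in naive cells. The groups were far apart in both batches. The inflamed level was 323-fold higher in batch 2 (95% counting interval 202 to 554) and 19.4-fold higher in batch 3. A single naive cell of batch 3 held 318 of the 324 naive reads of that batch. Without the top cell of each sum the inflamed levels were 591-fold and 903-fold higher. These 2 folds rest on only 8 and 6 remaining naive reads and are imprecise. The log2 fold change was 6.24 ± 1.54 (SE), with p = 0.0184 unadjusted, an adjusted p of 0.568 by edgeR and of 9.68e-10 by DESeq2.

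Il1rap (chromosome 16) encodes the accessory chain that the receptors of IL-1, IL-33 and IL-36 share. It stood at 39.2 and 20.0 CPM in inflamed cells, against 36.6 and 135.7 CPM in naive cells. The 2 batches went opposite ways, 1.07-fold higher with inflammation in batch 2 and 6.79-fold higher in naive cells in batch 3. Over both the log2 fold change was -1.33 ± 1.03 (SE; adjusted p of 0.809 by edgeR). In batch 3, 14.5% of inflamed cells and 62.7% of naive cells had a read of Il1rap. At 5 or more reads the shares were 9.21% (exact interval 3.78% to 18.06%) and 20.34% (10.98% to 32.83%), and these intervals overlapped. Of the naive cells of batch 3, 25 had only 1 to 4 reads. The top 5 cells carried 97.17% of the inflamed and 96.41% of the naive Il1rap reads of that batch.

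Il1rl1, the IL-33 receptor known as ST2, was nearly absent. It had 2 reads in 1 inflamed cell of batch 3 and 0 in the other 3 sums. Il33, the gene of its ligand, was thus the most abundant member while its receptor was at or near 0 in the same cells.

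Il1r2 (chromosome 1, 40074079-40125231, plus strand), the decoy receptor, stood at 87.3 and 181.5 CPM in inflamed cells, against 50.3 and 18.8 CPM in naive cells. The groups did not overlap. The inflamed level was 1.74-fold higher in batch 2 and 9.66-fold higher in batch 3, and without the top cell of each sum 2.11-fold and 81.8-fold higher. In batch 3, 802 of the 892 naive reads came from 1 cell. The log2 fold change was 2.03 ± 0.87 (SE), with an adjusted p of 0.613 by edgeR and 0.0509 by DESeq2.

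The IRAK kinase genes split. Irak2, a kinase family member that sustains signalling from the receptor complex, stood at 16.6 and 25.5 CPM in inflamed cells, against 12.7 and 3.96 CPM in naive cells. Its groups did not overlap, with folds of 1.31 and 6.45 and a log2 fold change of 1.54 ± 1.39 (SE; adjusted p of 0.853 by edgeR). Irak3, also called IRAK-M, an inhibitor of the same pathway known from macrophages, was at 0.622 and 0 CPM in inflamed cells, against 0 and 9.92 CPM in naive cells. Its reads came from 1 inflamed cell and 5 naive cells, 1 of which held 98.9% of the naive reads.

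Across the list, 8 of the 10 members passed the filter on low counts, and Il1b and Il1rl1 did not. None of the 8 passed an adjusted p of 0.05 by edgeR, as was the case for all 14713 genes tested (0%), of which the lowest adjusted p was 0.568. At an unadjusted p under 0.05, 2 members were higher in inflamed cells (Il1a and Il1r1), against 5.04% of all genes, and 0 were lower, against 3.23%. DESeq2 called the same 2 members, against 6.3% of all genes called higher and 3.63% called lower. Higher in both batches were 5 members, Il1a, Il33, Il1r1, Il1r2 and Irak2, against 30.9% of all genes. Lower in both were 0, against 27.6%. For the same 5 members both inflamed sums lay above both naive sums, against 24.3% of all genes, and for 0 members below, against 21.3%. The median log2 fold of the 8 members was 0.60 in batch 2 and 2.81 in batch 3, against 0.047 and 0.059 over all genes tested. A member had to have counts in some of the sums to be among the 8. The naive sums of Il1a held 0 and 4 counts, so it passed the filter through the inflamed sums. Its direction in each of these counts is therefore no support.

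Per kilobase of exon, levels can be set beside each other. In inflamed cells Il33 led with 243 and 585 CPM per kb, and Il1a (74.7 and 39.7) and Il1r2 (45.8 and 95.1) followed in an order that changed with the batch. Il1r1 came next with 15.3 and 20.8 CPM per kb, and Irak2, Il1rap and Il18 all lay between 1.18 and 5.995. In naive cells Il33 also led, with 184.9 and 75.9 CPM per kb, before Il1r2 (26.4 and 9.85), Il1rap (3.22 and 11.9) and Il18 (5.98 and 5.62), where Il1r2 and Il1rap overlapped, and Il1rap and Il18 as well. Naive Il1r1 stood at 0.0473 and 1.07 CPM per kb and naive Il1a at 0 and 0.0427. The decoy Il1r2 thus stood above the signalling receptor Il1r1 per kilobase in each of the 4 sums. In CPM the order was the reverse in inflamed cells of batch 2, at 87.3 for Il1r2 and 97.2 for Il1r1. The lengths used, 1908 and 6363 bases, count all annotated exons, and whether reads scale with them here was not tested.

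The sums rest on different numbers of cells. Il33 was read in most cells of both conditions, 88.8% and 93.4% of inflamed cells and 94.3% and 76.3% of naive cells. At 5 or more reads the shares were 72.5% and 84.2% of inflamed cells, against 60.4% and 42.4% of naive cells, so the stricter count placed both inflamed groups above both naive groups where the looser one did not. Il1a was read in 31 and 16 inflamed cells (38.8% and 21.1%), against 0 and 4 naive cells (0% and 6.78%). Only 8 and 12 of those inflamed cells had 5 or more reads, against 0 and 0 naive cells. In batch 2 the other 23 inflamed cells had 1 to 4 reads. The 8 cells with more held a median of 1340 CPM of Il1a, and in batch 3 the 12 cells held a median of 259 CPM. The top 5 cells carried 88.01% and 85.75% of the Il1a reads of the inflamed sums.

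**Figure D2:**
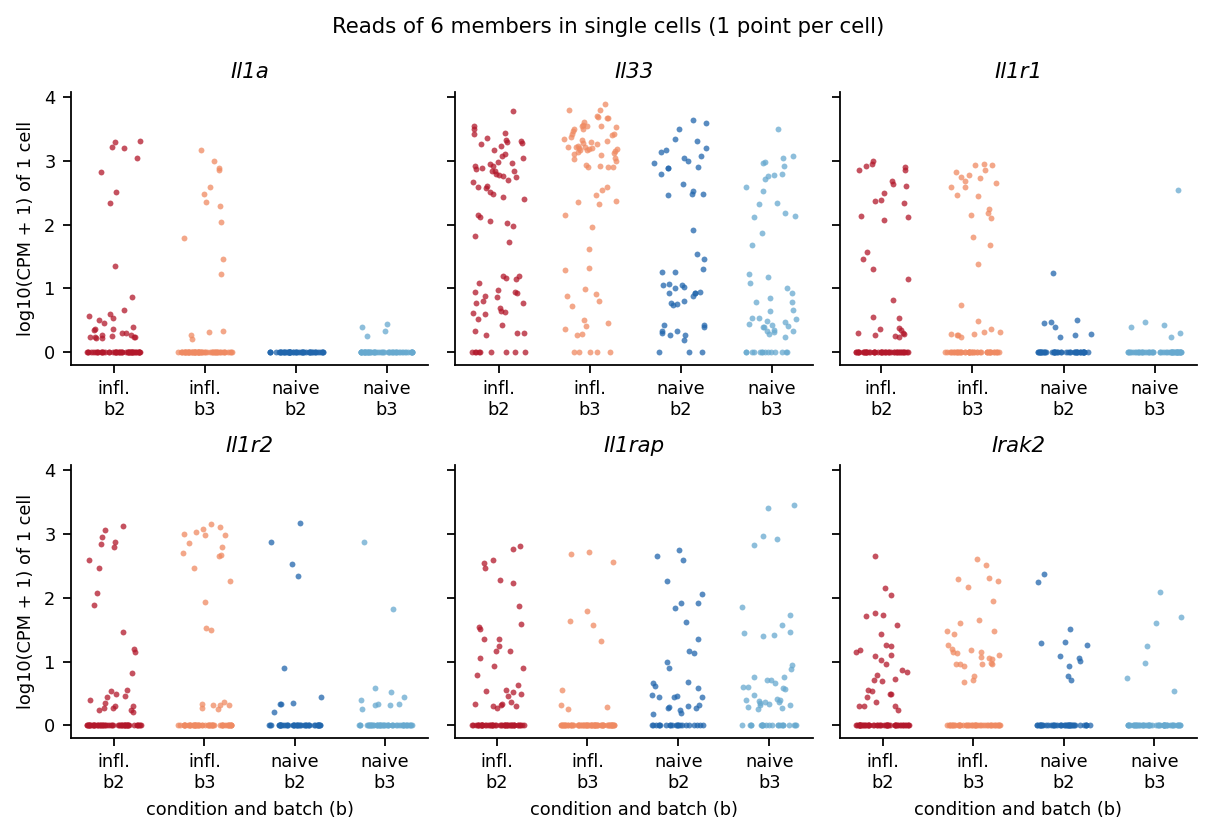
Level of 6 members in each kept cell as log10(CPM + 1) (y axis), 1 point per cell, inflamed batches left of naive batches. Il33 spreads over all 4 groups, while cells with high Il1a occur only among the inflamed cells and only 1 naive cell of batch 3 has high Il1r1, with 350 CPM.

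Il1r1 was read in 40.0% and 40.8% of inflamed cells, against 15.1% and 10.2% of naive cells, and at 5 or more reads in 23.8% and 28.9%, against 1.89% and 1.69%. The exact 95% intervals of inflamed and naive shares did not overlap at either minimum in either batch. Il1r2 was read in 28 of 80 and 24 of 76 inflamed cells, against 10 of 53 and 11 of 59 naive cells, with intervals of the shares that overlapped. Irak2 was read in 40.0% and 40.8% of inflamed cells, against 22.6% and 11.9% of naive cells. The Irak2 intervals overlapped in batch 2 and did not in batch 3, at either minimum. Its typical level per positive cell was low, with a median of 15.4 and 14.1 CPM in inflamed cells with 5 or more reads, against 17.8 and 38.8 CPM in naive ones.

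Thinning every cell to 500000 counts, which left out 10 and 4 inflamed and 7 and 4 naive cells, moved most shares by less than their counting intervals. The exceptions among 40 were Il33 in naive cells of batch 2, at 80.4% thinned against 94.3% unthinned, and Il1rap in naive cells of batch 3, at 45.5% thinned against 62.7% unthinned. Il1a was then read in 28.6% and 18.1% of inflamed cells, against 0% and 7.27% of naive cells. For Il1r1 the thinned shares were 34.3% and 37.5%, against 8.70% and 7.27%. For Il1r2 they were 31.4% and 29.2%, against 17.4% and 14.5%. Il1rap was read in 35.7% and 11.1% of thinned inflamed cells, against 52.2% and 45.5% of thinned naive cells. No order is read from the Il1rap shares of batch 2, since its level there was 1.07-fold higher in inflamed cells and 20 of 80 inflamed and 13 of 53 naive cells had 5 or more reads.

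**Figure D3:**
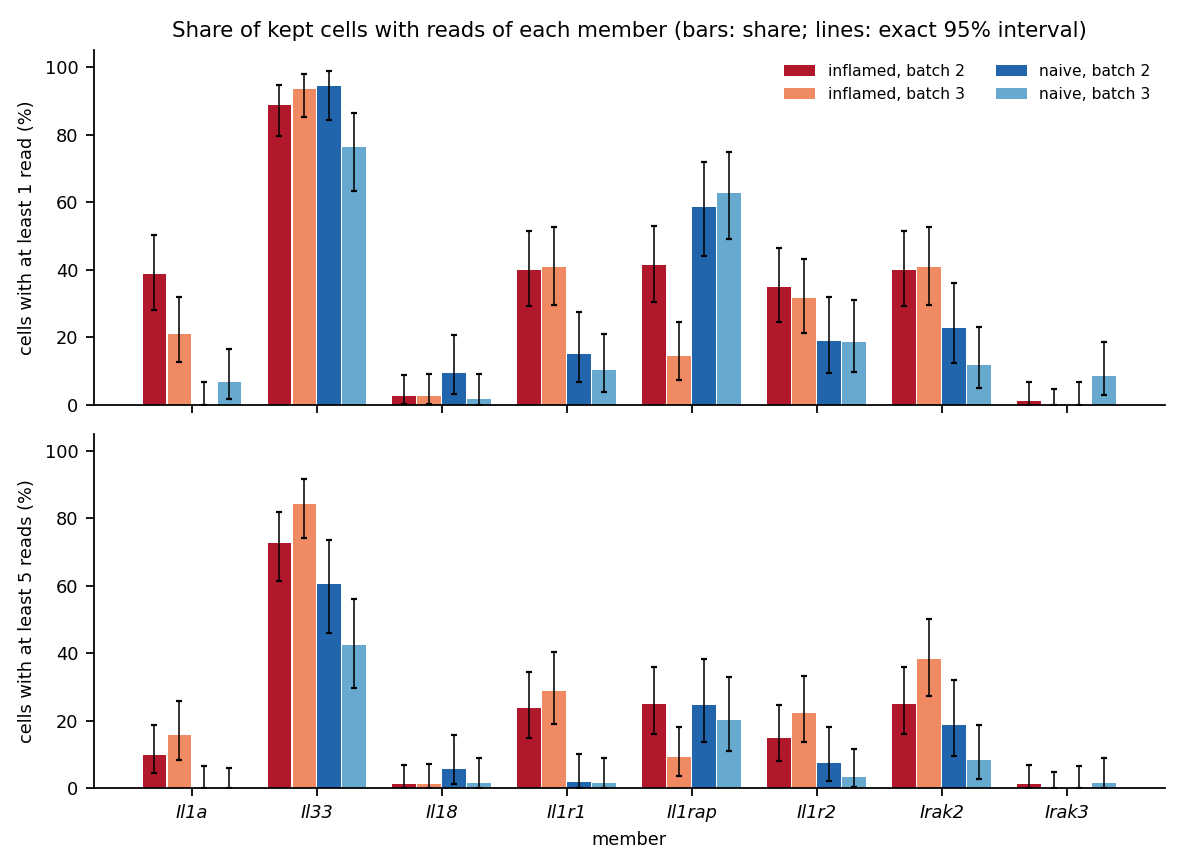
Share of kept cells with at least 1 read (upper panel) and at least 5 reads (lower panel) of 8 members, in percent, with exact 95% intervals, inflamed bars left of naive bars. Il1r1 reached 23.8% and 28.9% of inflamed cells at 5 or more reads against 1.89% and 1.69% of naive cells, and Il1rap has the taller naive bar in both batches of the upper panel, unlike the other 7 members.

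The median cell had reads of 3 members in inflamed and 2 in naive cells of batch 2, and of 2 in both conditions in batch 3. At least 3 of the 10 were read in 50 of 80 and 37 of 76 inflamed cells (62.5% and 48.7%), against 19 of 53 and 17 of 59 naive cells (35.8% and 28.8%). At 5 or more reads these shares were 22.5% and 27.6%, against 7.55% and 1.69%.

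Within inflamed cells, Il1a was set beside each receptor gene, with the number of cells that the product of the single shares gives. Il1a and Il1r1 were both read in 15 and 6 inflamed cells, where the product gives 12.4 and 6.53. At 5 or more reads of each the counts were 1 and 3, where it gives 1.90 and 3.47. Most inflamed cells with 5 or more reads of Il1a thus had fewer than 5 reads of its signalling receptor. The same held for inflamed cells as a whole, of which 23.8% and 28.9% had 5 or more reads of Il1r1. Il1a and the decoy Il1r2 were both read in 14 and 8 inflamed cells, where the product gives 10.8 and 5.05, and at 5 or more reads in 2 and 4, where it gives 1.20 and 2.68. Il1a and Il1rap were both read in 10 and 1 inflamed cells, where the product gives 12.8 and 2.32, and at 5 or more reads in 0 and 1, where it gives 2.00 and 1.11. The counts of Il1a with Il1r2 thus lay above the product in both batches and those with Il1rap below it.

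Il1r1 and its partner chain Il1rap shared 14 and 5 inflamed cells, where the product gives 13.2 and 4.49. In naive cells they shared 4 and 6, where it gives 4.68 and 3.76. All 6 naive cells of batch 3 with a read of Il1r1 also had a read of Il1rap. The full set of ligand, receptor and partner chain, Il1a, Il1r1 and Il1rap, was read in 4 and 1 inflamed cells, against 0 and 1 naive cells. At 5 or more reads of each it was found in 0 and 1 inflamed cells, against 0 and 0 naive cells. Signalling and decoy receptor were read together in 13 and 9 inflamed cells (product 11.2 and 9.79), and Il1r1 with Irak2 in 11 and 13 (product 12.8 and 12.6). Departures from the product were not tested.

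**Figure D4:**
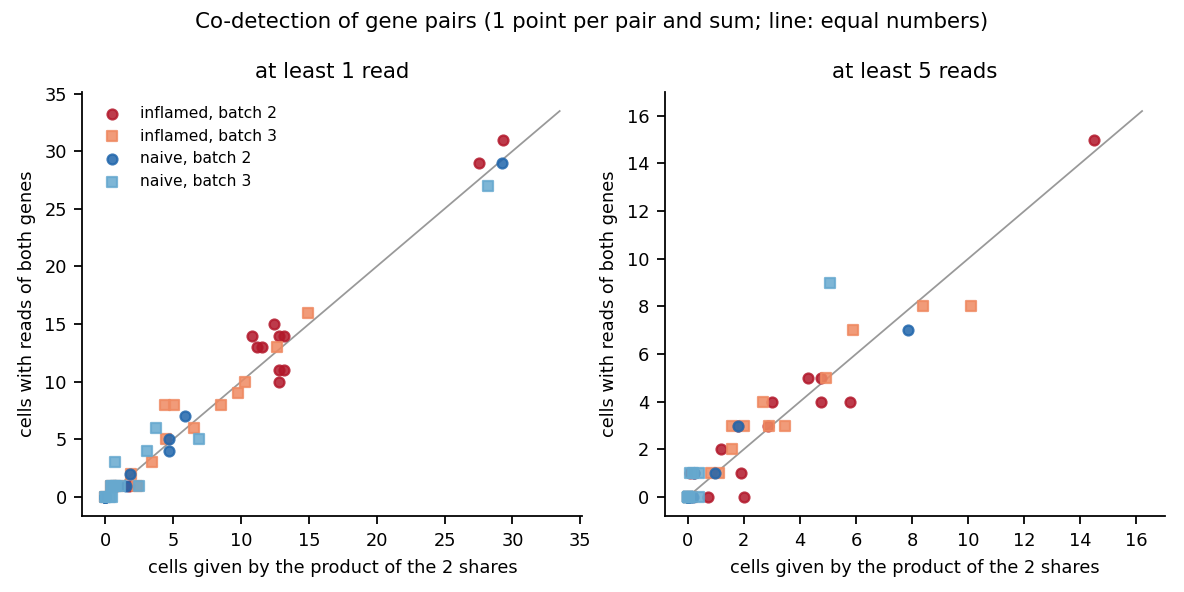
Number of cells with reads of both genes of a pair (y axis) against the number given by the product of the single shares (x axis), for the 15 pairs in each of the 4 groups, at 1 read (left) and 5 reads (right). Points lie along the line of equal numbers; the pair of Il1a and Il1r1, for example, has 15 cells where the product gives 12.4.

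Il1rn, the receptor antagonist gene, crossed these results. It stood at 99.2 and 188.8 CPM in inflamed cells, against 0 and 0.126 CPM in naive cells, and shared 14 and 8 inflamed cells with Il1a, where the product of shares gives 12.8 and 4.42. With Il1r1 it shared 11 and 8 inflamed cells, where the product gives 13.2 and 8.57.

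The receptor genes Il1r2, Il1r1, Il1rl2, Il1rl1, Il18r1 and Il18rap follow each other on chromosome 1 on the plus strand, from 40074079 to 40551705. Both ends of the cluster were higher in the inflamed sums and the middle was at or near 0. Il1rl2, the IL-36 receptor, had 2 reads in 1 inflamed cell. Il18r1, the binding chain of the IL-18 receptor, stood at 12.8 and 52.2 CPM in inflamed cells, against 0.124 and 0.0211 CPM in naive cells (unadjusted p = 0.0201). Il18rap, its partner chain, stood at 20.9 and 8.97 CPM in inflamed cells, against 0 and 0 CPM in naive cells, at least 393.7-fold and 141.9-fold higher with a floor of 3 counts per naive sum (unadjusted p = 0.0277). Both had an adjusted p above 0.05 by edgeR.

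**Figure D5:**
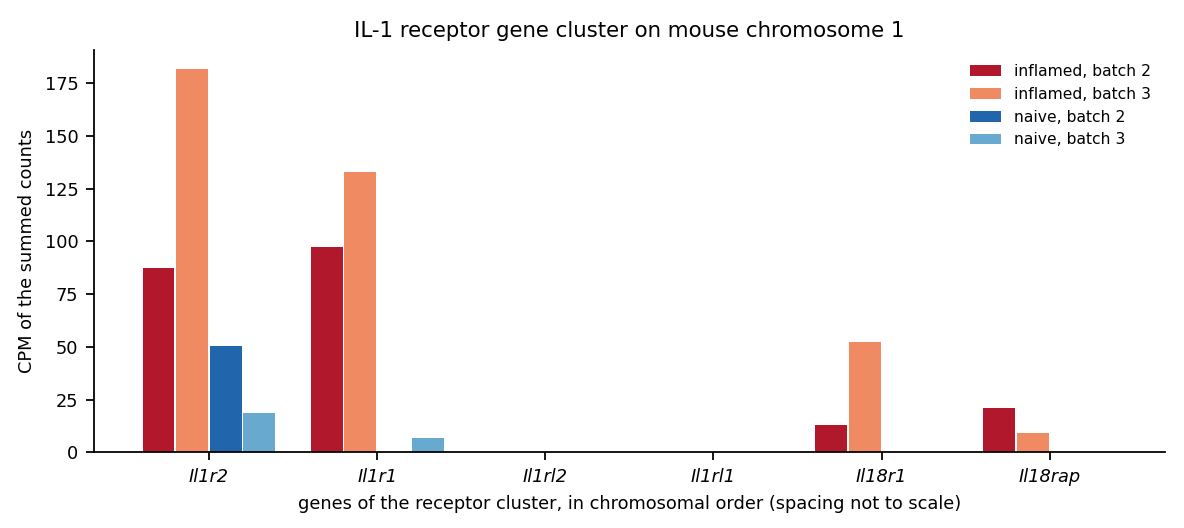
Level in CPM of the summed counts (y axis) of the 6 receptor genes of the cluster in chromosomal order (x axis, spacing not to scale), inflamed bars left of naive bars. Il1r2 and Il1r1 at the left and Il18r1 and Il18rap at the right have taller inflamed bars, and Il1rl2 and Il1rl1 in the middle had 2 reads each.

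The rest of the pathway was read from lists with no test over a list. Of 6 other ligand genes of the family in the tables, 5 were at 0 in every sum and the sixth was Il1rn. Of 7 other receptor and binding protein genes, 4 passed the filter, and since their naive sums held at most 22 counts they passed it through the inflamed sums, so their direction is no support. Il18r1 and Il18rap had an unadjusted p under 0.05. Il18bp, a secreted inhibitor that binds IL-18, stood at 13.3 and 38.1 CPM in inflamed cells, against 0.390 and 0 CPM in naive cells (unadjusted p = 0.0756).

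The proximal signalling genes were mixed. Of 15 tested, 5 were higher and 5 lower in both batches, against 30.9% and 27.6% of all genes, and their median log2 fold was 0.59 in batch 2 and -0.12 in batch 3. Tab1, 1 of the 5 higher, had 4 and 3 naive counts. It passed the filter through the inflamed sums, so its direction is no support. A single cell held 99.5% and 98.1% of its inflamed reads. Tollip, an adaptor that restrains IRAK1, was the 1 gene with an unadjusted p under 0.05 (0.0462), at 201 and 106.7 CPM in inflamed cells, against 89.1 and 45.5 CPM in naive cells. Chuk, an IκB kinase gene, stood at 17.3 and 55.3 CPM in inflamed cells, against 36.01 and 20.2 CPM in naive cells.

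Of 15 genes of processing and release, 5 were at 0 in every sum and 6 were tested. Of these, 2 were higher and 1 was lower in both batches, against 30.9% and 27.6% of all genes, and 0 had an unadjusted p under 0.05. Casp1, the protease that matures IL-1β and IL-18, was at 1.47 and 0 CPM in inflamed cells, against 0 and 0 CPM in naive cells, all from 1 cell. Capn2, a calpain subunit of the family that cleaves IL-1α, stood at 210.2 and 163.8 CPM in inflamed cells, against 59.1 and 207 CPM in naive cells. Capn1, the catalytic subunit of another calpain, stood at 4.61 and 14.7 CPM in inflamed cells, against 7.85 and 17.6 CPM in naive cells. Casp4, the mouse inflammatory caspase that senses lipopolysaccharide, stood at 264.7 and 271.8 CPM in inflamed cells, against 110.9 and 165.5 CPM in naive cells.

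Of 10 feedback inhibitors, all tested, 6 were higher and 0 lower in both batches, against 30.9% and 27.6% of all genes. The median log2 fold was 1.25 in batch 2 and 0.82 in batch 3. Nfkbie, an inhibitor of NF-κB, was the 1 with an unadjusted p under 0.05 (0.0485), at 4.43 and 26.7 CPM in inflamed cells, against 0.0354 and 1.20 CPM in naive cells. Its naive sums held 2 and 57 counts, so it passed the filter through the inflamed sums and its direction is no support. Bcl3, an atypical member of the same family, stood at 16.5 and 41.1 CPM in inflamed cells, against 4.43 and 2.44 CPM in naive cells. Cyld, a deubiquitinase, stood at 129.2 and 117.5 CPM in inflamed cells, against 84.97 and 58.75 CPM in naive cells. Nfkbia, the best known inhibitor of the family, stood at 1106 and 1823 CPM in inflamed cells, against 970 and 1861 CPM in naive cells.

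Of 25 genes that textbooks list as induced by IL-1, 17 were tested, 12 were higher and 1 was lower in both batches, against 30.9% and 27.6% of all genes. At an unadjusted p under 0.05, 7 had a higher inflamed level, against 5.04% of all genes: Cxcl2, Cxcl3, Ccl20, Lif, Ptgs2, Lcn2 and Vcam1. None passed an adjusted p of 0.05 by edgeR. Cxcl3 had 0 and 0 naive counts and Ccl20 had 0 and 19. Both passed the filter through the inflamed sums, so their direction is no support. Csf3, also higher in both batches, had only 5 naive counts in batch 3. It needed an inflamed sum to pass the filter, so its direction is no support either. A single cell held 67.3% and 80.8% of the inflamed Csf3 reads. Cxcl3 was read in 6 and 11 inflamed cells, and 1 cell held 83.5% of its inflamed reads of batch 2. The median log2 fold of the 17 genes was 2.01 in batch 2 and 2.05 in batch 3. Ptgs2, the inducible cyclooxygenase, stood at 1780 and 2027 CPM in inflamed cells, 16.8-fold and 16.9-fold higher than in naive cells of the same batch (unadjusted p = 0.000238). Ccl20, a chemokine for CCR6 cells, stood at 466 and 1753 CPM in inflamed cells, against 0 and 0.400 CPM in naive cells. Other stimuli induce these genes as well, and Saa3, Mmp3, Mmp9 and Nos2 of the same list had 0 reads.

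Over single inflamed cells, no gene followed a member closely. Likeness was the Spearman correlation of log2(CPM + 1) over the 80 and 76 inflamed cells within each batch, ranked by the lower of the 2 values among 5977 genes, and is a description of cells that share libraries and depth. For Il33 the nearest was Pdcd4 (0.45 and 0.37). For Il1r1 it was Tcn2 (0.33 and 0.32), for Il1a Myo10 (0.32 and 0.27), for Irak2 H3f3a (0.29 and 0.30) and for Il1r2 Wdr48 (0.27 and 0.26). The next were Sinhcaf and Lyrm4 for Il33, Sf3b6 and Gm13509 for Il1r1, Flrt3 and Tspan9 for Il1a, Insig1 and Srek1 for Irak2, and Fos and Prpf3 for Il1r2. Between the members themselves the values were lower, from -0.17 to 0.23. Il1a and Il1r2 reached 0.14 and 0.22, and Il1a and Il1r1 0.08 and -0.01.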

How the data were processed

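Single-cell polyA RNA of sorted prostate cells was measured in 282 samples, each 1 cell, with group and batch from the labels. The authors deposited unnormalised read counts, with genes in rows and cells in columns, and a separate table for each batch. TopHat2, HTSeq, R 3.4.1, Seurat 1.4 and the build GRCm38.p6 are named per the submitters' processing notes; the counting of multi-mapped reads and the use of strand are not described in the sources used here. The GENCODE annotation of GRCm38 gave symbols and positions and matched 48058 of 48440 gene identifiers. Start regions came from RefSeq, which had an entry for all 10 members.

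Cells with under 1000 genes or 50000 counts were left out (14 cells). Total counts of deposited cells ranged from 2725 to 2219764. No doublet caller was run, and no 2 cells had identical counts. Counts were summed per condition and batch and fitted with edgeR 4.0.16 in R 4.3.3 (quasi-likelihood test, TMM, filterByExpr, condition and batch, 1 residual degree of freedom), with Benjamini-Hochberg adjustment over 14713 genes. Fold changes are inflamed over naive. The batch of the labels pairs the sums; the correlation of deviations of same-batch sums, a check of the pairing, was -0.011. DESeq2 1.42.0, other scalings and filters, all deposited cells, a fit without the batch, single batches, thinned cells, means over cells and leaving out each gene's top cell were tried as alternatives. Upper-quartile scaling moved the median log2 fold of all genes by 0.041 and DESeq2 size factors by -0.007. The fit was tested on simulated data. Shares have exact Clopper-Pearson 95% intervals. A floor of 3 counts stood in for a sum at 0, and log2 folds within a batch had a prior count of 2 added except where the floor is named.

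Named are all members, Il1rn, genes of the pathway lists with an unadjusted p under 0.05, of the other genes at most the first 3 of each list in alphabetical order of those measured, and the 3 genes most alike to each member read in at least 20% of inflamed cells of both batches. Il1rl2, Casp4, Tab1, Csf3, the marker genes and the undetected genes given as examples fall outside this rule and were chosen after their values were seen. The members and lists were chosen with earlier results of these data known.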

Additional observations from a re-analysis of the deposited data

How the results depend on the processing

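No gene passed an adjusted p of 0.05 by edgeR with TMM, upper-quartile or DESeq2 size factors, with no gene filter, with genes in 20% of cells, in all deposited cells, in thinned cells or with no replicate block, whereas DESeq2 called 1461 genes and 2 members (Il1a and Il1r1). The cause of that difference was not tested. With TMM, 1217 genes had an unadjusted p under 0.05, and 1836 without the block. The same 5 members were higher in both batches under all 6 alternatives run. No member's fitted log2 fold change turned its direction in the alternatives fitted over all 4 sums. Without the replicate block it was 11.39 for Il1a, 5.01 for Il1r1 and 1.96 for Il1r2, and the paired fit gave 11.53, 6.24 and 2.03.

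Single batches moved more. Leaving out batch 2 or batch 3 gave log2 values of 9.41 and 12.22 for Il1a, 2.94 and 0.40 for Il33, 4.28 and 8.19 for Il1r1, 3.27 and 0.80 for Il1r2, and 2.68 and 0.39 for Irak2. They gave 0.093 and -2.31 for Il18, -2.76 and 0.097 for Il1rap, and -8.33 and 4.40 for Irak3, so those 3 had opposite signs in the 2 batches. With every cell weighted equally Il1a was at 6.46, with a pseudocount of 1 CPM, which limits it. With the top cell of each sum left out, Il1r1 was at 9.14, on 8 and 6 naive reads, and Il1r2 at 3.698. At 5 reads in place of 1, 19 of 40 shares and 31 of 60 shares of pairs left their counting interval, and 2 and 8 did so in thinned cells. Values of Il1b, Il1rl1, Il18 and Irak3 are the least precise, since they had reads in at most 5 cells of any group.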
